A study of Mus musculus with 4 samples.

Results

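The genes described here are 10 transcription factor genes that are known for dividing the embryonic limb into regions: *Pitx1*, *Tbx4*, *Tbx5*, *Tbx15*, *Tbx18*, *Shox2*, *Meis1*, *Meis2*, *Lmx1b*, and *Lhx9*. They were chosen by name, and all 10 were found among the 23946 gene symbols listed for each library. Their RNA was measured by bulk RNA-seq in CD51+;CD200+ skeletal stem/progenitor cells of wild type CD-1 mice at postnatal day 3. There was 1 library from each of 4 tissues: 3 sutures of the skull, posterior frontal (PF), coronal (COR), and sagittal (SAG), and the growth plate (GP) of the tibia, a bone of the hindlimb. All groups share strain, genotype, and age, no treatment is named, and the cells came from a cohort of mice, so a library does not stand for an animal. The sort kept cells positive for CD51 and CD200 and negative for CD45, Ter119, Tie2, Thy1, 6C3, and CD105. Before sorting, a suture sample held the dura mater and periosteum as well as the bone edges.

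Limb regions are set by combinations of such factors. PITX1 and the T-box factor TBX4 mark the hindlimb, and TBX5 marks the forelimb. SHOX2 and the MEIS proteins act in the proximal limb, LMX1B in its dorsal side, and LHX9 in the growing tip together with LHX2. Several of these factors also work outside the limb: TBX15, TBX18, MEIS, and LMX1B in head mesenchyme, TBX18 in mural cells of vessels, and LHX9 in the pineal gland.

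The values are FPKM, fragments scaled by transcript length and by library size, so levels can be compared between genes. Differences and folds are of log2(FPKM + 1) values unless stated otherwise, so they are too small for genes with low levels. A gene was counted at a difference of 3-fold or more (1.58 on the log2 scale). Genes that stayed below 1 FPKM in all 4 libraries were left out, and 13998 remained. Because each tissue has 1 library, replicate error is unknown, no test was made, and the tissue and the library cannot be told apart for any difference. In bulk RNA, a change in the number of cells of a type and a change in RNA per cell also cannot be told apart.

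The libraries held from 11402 to 12263 genes at FPKM of 1 or more. From the commonest step between low values, the PF library had 44.8% of the depth of the SAG library, the deepest. The sorted antigens were present: *Itgav* (CD51) was listed from 6.20 to 15.0 FPKM and *Cd200* from 23.5 to 62.6, while *Ptprc* (CD45) did not pass 0.568. *Enpep*, the gene of 6C3, a marker sorted as negative, was between 1.39 and 7.05 FPKM. Summed FPKM over marker lists ran from 1.84 to 16.9 for 6 endothelial genes, from 5.55 to 34.4 for 6 leukocyte genes, and from 1.83 to 15.6 for 5 erythroid genes. *Sparc* and *Col1a1* are listed at 0 in COR, so a 0 can be a failed estimate in these files.

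The promoters of *Tbx4* and *Shox2* are shown because both genes stood higher in GP than in every suture, and that of *Lhx9* because it stood apart in SAG. Each run is the 250 bases before the RefSeq gene start, from a table of build GRCm38.p6, placed in mm9 by an exact match. In the GENCODE annotation of mm9, the *Tbx4* and *Lhx9* runs lie within the span of their own gene, downstream of its outermost start, and the *Shox2* run lies next to its start and within *Rsrc1*, which is on the other strand.
Tbx4 (chr11:85710017-85710266, plus strand): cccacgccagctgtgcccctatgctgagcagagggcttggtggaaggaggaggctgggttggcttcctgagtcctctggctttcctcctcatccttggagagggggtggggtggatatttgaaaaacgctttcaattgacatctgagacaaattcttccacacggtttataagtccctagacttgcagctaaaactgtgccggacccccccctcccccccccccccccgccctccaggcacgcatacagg
Shox2 (chr3:66785694-66785943, minus strand): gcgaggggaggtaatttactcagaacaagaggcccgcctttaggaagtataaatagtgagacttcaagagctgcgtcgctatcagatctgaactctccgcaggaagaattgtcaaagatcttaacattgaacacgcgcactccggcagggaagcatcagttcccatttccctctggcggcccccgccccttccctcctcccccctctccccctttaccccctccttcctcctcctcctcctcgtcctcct
Lhx9 (chr1:140739022-140739271, minus strand): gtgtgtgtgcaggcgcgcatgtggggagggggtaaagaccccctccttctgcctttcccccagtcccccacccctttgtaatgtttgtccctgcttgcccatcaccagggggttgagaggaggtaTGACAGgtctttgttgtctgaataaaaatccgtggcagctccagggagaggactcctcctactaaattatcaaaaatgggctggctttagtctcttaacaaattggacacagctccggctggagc
Capitals mark the letters TGACAG, a MEIS-type word. It was searched on both strands of 300 bases (250 before and 50 after each start), and stood in 2 of the 7 promoters found for the 10 genes (*Lhx9* and *Tbx18*) and in 19.2% of 32851 promoters. The T-box half-site core GGTGTG stood in the *Meis1* promoter alone among the 7, and in 19.05% of all. The PITX-type word TAATCC and the LIM homeodomain-type word TAATTA stood in 0 of the 7, and in 7.06% and 5.29% of all. *Pitx1*, *Tbx5*, and *Tbx15* were not matched.

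Of the 10 genes, 3 were at least 3-fold higher in GP-CD51+;CD200+ cells than in every suture: *Pitx1*, *Tbx4*, and *Shox2*. None was 3-fold lower than every suture. Over all 13998 genes, 0.979% were higher and 0.257% lower than every suture by this rule. *Pitx1* and *Tbx4* reached 1 FPKM only in GP and so passed the filter through that library. GP lay above the range of the sutures for 5 of the 10 genes (*Pitx1*, *Tbx4*, *Tbx5*, *Tbx15*, and *Shox2*), below it for *Lmx1b*, and within it for the other 4. Over all genes tested, GP lay above the range for 16.4% and below it for 17.3%. The median log2 difference of GP from the suture mean was 0.24 over the 10 genes and -0.018 over all genes. The first of these moved with the comparator, from -0.30 against the highest suture of each gene to 1.11 against the lowest, and was 0.51 without PF, 0.49 without SAG, 0.10 without COR, and 0.95 with a pseudocount of 0.1.

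**Figure D1:**
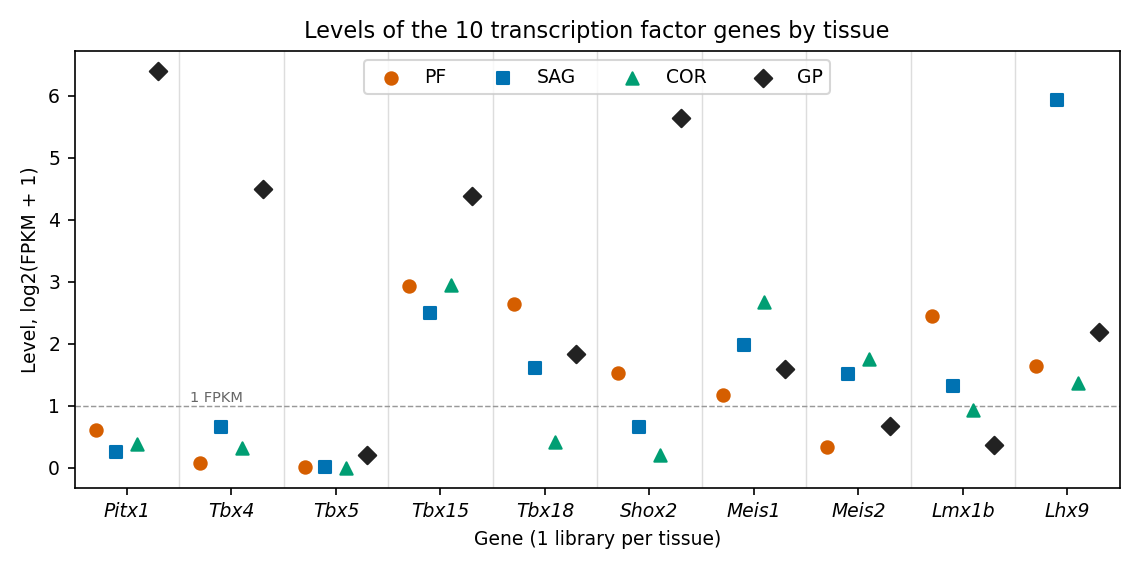
Level of each of the 10 genes as log2(FPKM + 1) in the PF, SAG, COR, and GP libraries, with 1 point per library and no error bars; the dashed line marks 1 FPKM. *Pitx1*, *Tbx4*, and *Shox2* stand high only in GP, *Lhx9* only in SAG, and *Tbx5* lies below 1 FPKM in all 4.

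*Pitx1* (mm9 chromosome 13, 55926415 to 55937553, minus strand) encodes a paired-type homeodomain protein that gives the hindlimb its identity. GP held 83.7 FPKM, and the sutures held 0.536 (PF), 0.197 (SAG), and 0.305 (COR). GP was far above the sutures, which lay close together. On the log2(FPKM + 1) scale GP was 55.1-fold above PF, 70.7-fold above SAG, and 64.9-fold above COR. Without the pseudocount, GP was 156 times the highest suture, a ratio that rests on a low denominator: by the depth estimate, 0.536 FPKM in PF was about 22.7 fragments. Ranked by the smallest of its 3 differences, *Pitx1* was number 2 of the 137 genes higher in GP than in every suture, behind *Col10a1*, the collagen of hypertrophic chondrocytes. It made up 45.7% of the summed FPKM of the 10 genes in GP.

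*Tbx4* (chromosome 11, 85699924 to 85729599, plus strand), the hindlimb T-box gene, was at 21.7 FPKM in GP. The sutures held 0.0586 (PF), 0.583 (SAG), and 0.256 FPKM (COR). Again GP stood alone, while among the sutures SAG was highest. GP was 21.4-fold above PF, 14.3-fold above SAG, and 18.0-fold above COR on the log2(FPKM + 1) scale. The PF value rests on about 3.2 fragments by the depth estimate, and the GP value on about 2200. Its promoter sequence held none of the 4 words searched.

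*Tbx5* (chromosome 5, 120284672 to 120335227, plus strand), the forelimb counterpart of *Tbx4*, was below 1 FPKM in every library. GP held 0.159 FPKM, PF 0.0148, and SAG 0.0124, while COR is listed at 0. By the depth estimate GP had about 20.1 fragments, PF 1.0, and SAG 1.9. In the tibial cells, then, *Tbx4* at 21.7 FPKM stood well above *Tbx5*. *Tbx5* did not pass the filter and was not counted in any 3-fold comparison.

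*Shox2* (chromosome 3, 66775649 to 66785693, minus strand) encodes a homeodomain protein of the proximal limb that also acts in growth plate chondrocytes. GP held 48.8 FPKM, compared with 1.89 for PF, 0.576 for SAG, and 0.161 for COR. GP was highest by a wide margin, and the sutures spread more than for *Pitx1*, with PF 2.49-fold above COR. GP was 17.2-fold above PF, 31.6-fold above SAG, and 42.9-fold above COR on the log2(FPKM + 1) scale. The annotated start of *Shox2* overlaps *Rsrc1* on the opposite strand by 382 bases, and the counting is not stated to use strand, so fragments there cannot be assigned with certainty. *Rsrc1* was also highest in GP, at 26.3 FPKM, and the sutures held 2.65 (PF), 15.4 (SAG), and 12.1 (COR). *Rsrc1* was chosen after its values were seen.

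**Figure D2:**
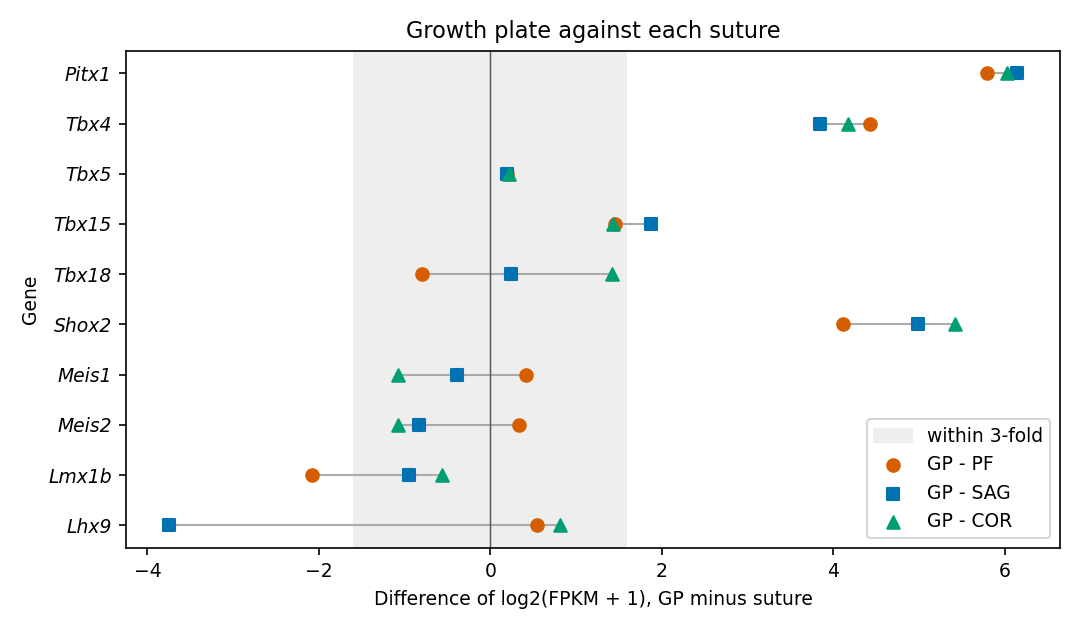
Difference of log2(FPKM + 1), GP minus each suture, for the 10 genes; grey shading marks less than 3-fold, and grey lines join the 3 differences of a gene. *Pitx1*, *Tbx4*, and *Shox2* lie to the right of the shading for every suture, from 3.84 to 6.14, and *Lhx9* lies at -3.75 for SAG alone.

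Markers of other limb cell types were read beside these 3 genes. All 5 tendon genes (*Scx*, *Tnmd*, *Mkx*, *Fmod*, *Kera*) were highest in GP, with a summed level of 3505 FPKM there and of 762 to 1595 FPKM in the sutures. Of these, *Tnmd* and *Kera* were at least 3-fold higher in GP than in every suture, and *Kera*, keratocan, was at 104 FPKM in GP and at most 1.35 in a suture. None of the tendon genes was at 0, and *Mkx* is also a TALE gene. Of 9 chondrocyte genes measured, 3 were highest in GP and 6 in SAG, and they summed to 4285 FPKM in SAG and 3111 in GP, against 183 in PF and 168 in COR. The SAG levels of *Pitx1*, *Tbx4*, and *Shox2* were each at or below 0.583 FPKM. The part of tendon cells or chondrocytes in the GP levels was not tested. Muscle genes were near 0: *Myod1* and *Pax7* are listed at 0 in every library, and 8 muscle genes summed to between 0.222 and 1.62 FPKM.

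*Tbx15* (chromosome 3, 99044304 to 99158182, plus strand), a T-box gene needed for normal limb and skull bones, was well above 1 FPKM in every library. GP held 19.8 FPKM, COR 6.70, PF 6.62, and SAG 4.66. GP was highest, and the sutures differed from each other by at most 1.36-fold. The GP difference was 2.73-fold against PF, 3.67-fold against SAG, and 2.70-fold against COR, so the 3-fold limit was passed against SAG only. *Tbx15* was the highest of the 10 genes in PF and in COR, with 29.5% and 37.2% of their summed FPKM.

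*Tbx18* (chromosome 9, 87597635 to 87626095, minus strand), the closest relative of *Tbx15*, had another order. PF held 5.22 FPKM, GP 2.58, SAG 2.04, and COR 0.343. PF was highest and COR lowest, 4.63-fold apart, and GP lay between them. Between PF and COR, *Tbx18* was the only one of the 10 genes past 3-fold, compared with 10.7% of all genes. GP was within 3-fold of every suture, and its nearest was SAG, with a log2 difference of 0.24. With a pseudocount of 0.1, GP was 6.05-fold above COR, and SAG was 4.83-fold above COR. The sum of 8 mural cell genes was also highest in PF, at 124 FPKM, followed by 114 in GP, 63.0 in COR, and 28.1 in SAG. Of these, 4 were highest in PF and 3 in GP, and none was at 0. Of 8 meningeal genes, 3 were highest in PF and 4 in SAG, and the list summed to 222 FPKM in PF, 204 in GP, 171 in SAG, and 66.0 in COR. In GP, 177 FPKM of that sum was *Crabp2*, and the other 7 genes summed to 26.8 FPKM there and to 160 (SAG), 154 (PF), and 34.1 FPKM (COR) in the sutures. The meningeal gene *Slc6a13* is listed at 0 in COR and *Zic1* in GP. The part of these cell types in the *Tbx18* levels was not tested.

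*Meis1* (chromosome 11, 18780433 to 18918961, minus strand) and *Meis2* (chromosome 2, 115688800 to 115891575, minus strand) encode TALE homeodomain proteins, partners of HOX and PBX proteins. *Meis1* levels were 5.37 FPKM (COR), 2.93 (SAG), 2.01 (GP), and 1.26 (PF). *Meis2* levels were 2.38 FPKM (COR), 1.85 (SAG), 0.601 (GP), and 0.270 (PF). Both had the order COR, SAG, GP, PF, and *Meis1* was above *Meis2* in each library. With the pseudocount of 1, no difference of either gene reached 3-fold, and the widest, COR over PF, was 2.82-fold for *Meis1* and 2.66-fold for *Meis2*. With a pseudocount of 0.1 it was 4.03-fold for *Meis1* and 6.69-fold for *Meis2*, and *Meis2* was then also past 3-fold between SAG and PF (5.27-fold) and between COR and GP (3.53-fold). GP differed from COR by -1.08 on the log2 scale for both genes. All 8 osteoblast genes were also highest in COR. Their summed level was 11851 FPKM there, followed by GP with 8184, PF with 2731, and SAG with 887. Most of each sum was *Spp1*, with 8324 FPKM in COR, 6882 in GP, 1649 in PF, and 617 in SAG. *Runx2*, *Bglap*, and *Alpl* were higher in PF than in GP, and the others were higher in GP. SAG was second for both *Meis1* and *Meis2* but had the lowest osteoblast sum. *Spp1*, *Runx2*, *Bglap*, and *Alpl* were named after their values were seen. None of the 8 osteoblast genes was at 0. Their part in the *Meis1* and *Meis2* levels was not tested. GENCODE places 2 short genes within *Meis1* on the opposite strand, *Gm16140* and *Gm16141*, neither listed under that symbol here.

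*Lmx1b* (chromosome 2, 33416485 to 33496031, minus strand), the LIM homeodomain gene of the dorsal limb, was the only one of the 10 with GP below every suture. The levels were 4.48 FPKM (PF), 1.51 (SAG), 0.920 (COR), and 0.294 (GP). The GP value was equal to about 45.4 fragments. PF was 4.23-fold above GP, SAG 1.94-fold, and COR 1.48-fold, so the 3-fold limit was passed against PF only. With a pseudocount of 0.1 it was also passed against SAG, at 4.07-fold. Among the sutures, PF was 2.85-fold above COR, or 4.49-fold with that pseudocount. Of the 8 mural cell genes whose sums are given for *Tbx18*, 4 were highest in PF, 3 in GP, and 1 in COR. Their sum was 124 FPKM in PF and 114 in GP, the library with the lowest *Lmx1b*. Of the 8 meningeal genes, 3 were highest in PF, 4 in SAG, and 1 in GP. The part of these cell types in the *Lmx1b* level was not tested.

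*Lhx9* (chromosome 1, 140721763 to 140745153, minus strand) is a LIM homeodomain gene of the limb bud and of the pineal gland. SAG held 60.3 FPKM, followed by GP with 3.55, PF with 2.11, and COR with 1.59. SAG stood alone, with 80.8% of the summed FPKM of the 10 genes in that library, and the other 3 libraries lay close together. SAG was 13.5-fold above GP, 19.7-fold above PF, and 23.6-fold above COR on the log2(FPKM + 1) scale. GP was 1.46-fold above PF and 1.75-fold above COR, within the 3-fold limit. Between PF and SAG, and between COR and SAG, *Lhx9* was the only one of the 10 genes past 3-fold, compared with 15.1% and 8.41% of all genes.

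Like *Lhx9*, the summed markers of the pineal gland and of the choroid plexus were highest in SAG, but the other libraries had another order. Of 9 pineal and photoreceptor-like genes measured, 6 were highest in SAG, and the list summed to 251 FPKM there, to 19.4 in PF, and to less than that in COR (7.11) and GP (1.92). *Tph1*, the first enzyme of serotonin synthesis, had 50.7 FPKM in SAG and 4.27 in PF. *Crx*, a photoreceptor and pineal homeobox gene, had 18.9 FPKM in SAG and at most 0.548 elsewhere. *Aanat*, an enzyme of melatonin synthesis, reached 0.468 FPKM in SAG and is at 0 in the other libraries, and *Rcvrn* is listed at 0 in all 4. Of 8 choroid plexus genes, 7 were highest in SAG, where they summed to 5359 FPKM, followed by PF with 508, COR with 201, and GP with 52.0. *Otx2* is on both of these lists, with 168 FPKM in SAG, 10.3 in PF, 4.09 in COR, and 0.269 in GP, so it made up most of the pineal sum in SAG. Of 9 genes of neurons and glia, 4 were highest in SAG, and their sum was lowest there, at 22.9 FPKM compared with 125 in GP. Most of the choroid sum was *Ttr* in SAG (5103 FPKM), PF (465), and COR (141), so the order of these sums rests mainly on that gene. In GP, *Ttr* was at 9.74 FPKM, and most of the sum was *Aqp1*, at 41.1. *Aqp1* was highest in COR (53.8) and lowest in SAG (11.9). *Ttr* and *Aqp1* were named after their values were seen. PF had the next highest pineal and choroid sums, while its *Lhx9* level was below that of GP. GP had the lowest of both sums but the next highest *Lhx9* level. The part of pineal or choroid plexus RNA in the *Lhx9* level was not tested.

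**Figure D3:**
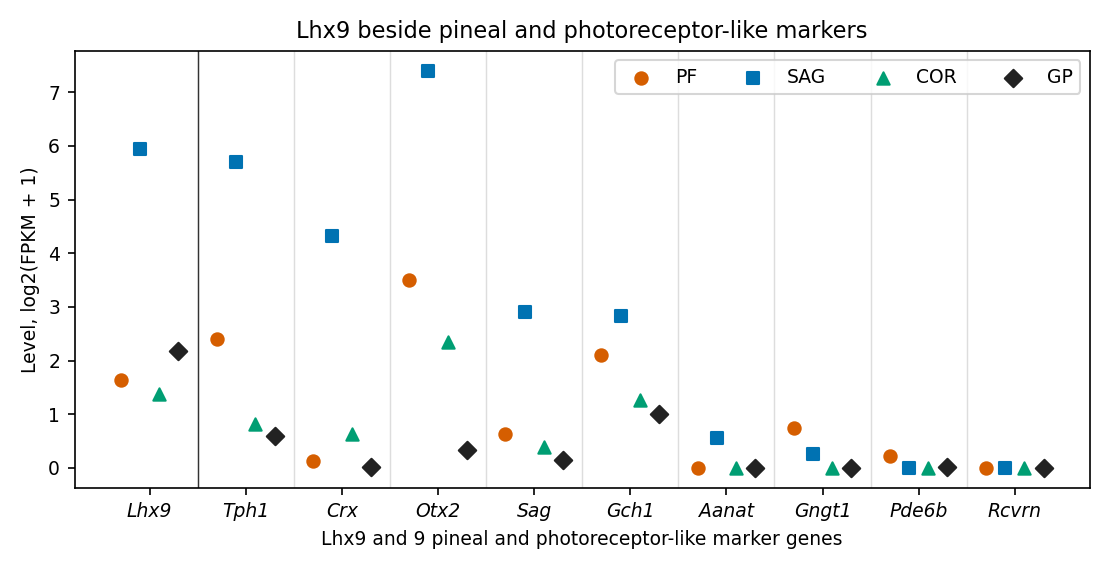
Levels of *Lhx9* and of 9 pineal and photoreceptor-like marker genes as log2(FPKM + 1), with 1 point per library. *Lhx9*, *Tph1*, *Aanat*, *Crx*, *Otx2*, *Sag*, and *Gch1* are highest in SAG, and *Rcvrn* is at 0 in all 4 libraries.

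By pair of tissues, 4 of the 10 genes passed 3-fold between GP and PF (*Pitx1*, *Tbx4*, *Shox2* higher and *Lmx1b* lower in GP), compared with 11.2% of all genes. Between GP and SAG 5 passed (*Pitx1*, *Tbx4*, *Tbx15*, *Shox2* higher and *Lhx9* lower in GP), compared with 8.00%. Between GP and COR 3 passed (*Pitx1*, *Tbx4*, and *Shox2*, all higher in GP), compared with 3.84%. These comparisons share the GP library. Each pair of sutures had 1 of the 10 genes past 3-fold, near the shares of all genes given for *Tbx18* and *Lhx9*.

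**Figure D4:**
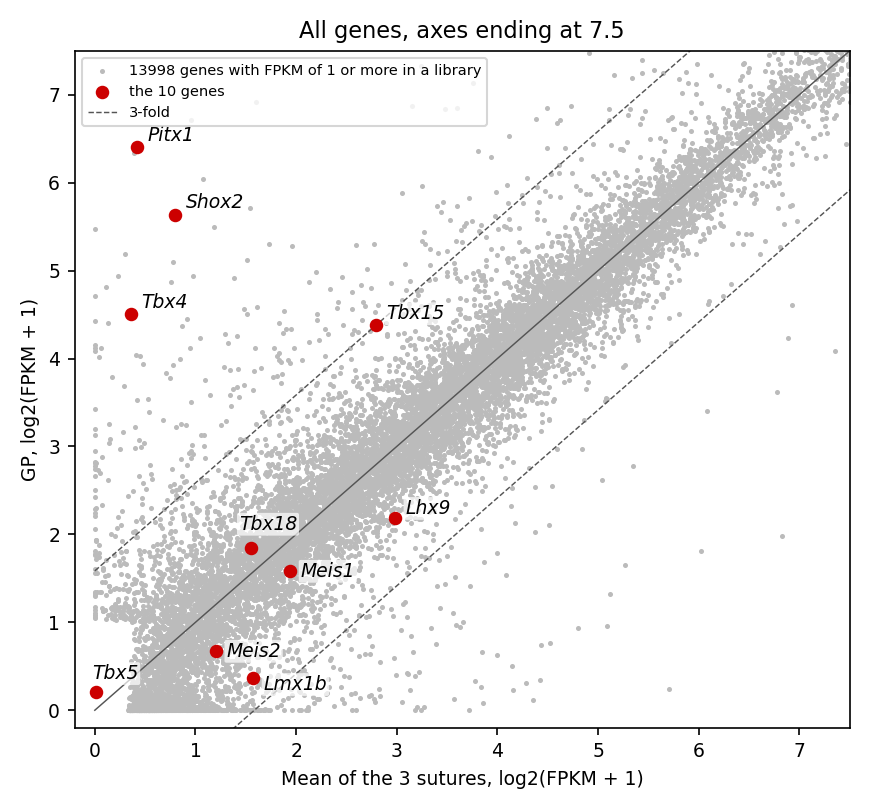
Level in GP against the mean level of the 3 sutures, both as log2(FPKM + 1), for 13998 genes (grey) and the 10 genes (red), with dashed lines at 3-fold. The axes end before the highest levels, and genes above that are not shown. *Pitx1*, *Shox2*, and *Tbx4* lie far above the upper line, and *Tbx15* lies on it.

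Other members of the same families, and limb patterning genes, were read from lists. Of 75 such genes measured, 46 passed the filter, 1 was at least 3-fold higher in GP than in every suture, and 0 were lower. These counts lie near the shares over all genes tested, 0.979% higher and 0.257% lower. The median log2 difference of GP from the suture mean over the 75 genes was -0.092. The higher gene was *Grem1*, a secreted BMP antagonist of the limb bud, with 15.3 FPKM in GP and 0.234 to 0.482 FPKM in the sutures. Its smallest difference was 11.0-fold, against PF. *Grem1* reached 1 FPKM only in GP and so passed the filter through that library. Among the other 19 limb patterning genes, *Sox9*, the chondrocyte regulator, was highest in SAG with 171 FPKM, and GP had 60.8. *Bmp4*, a bone morphogenetic protein, was also highest in SAG, with 73.5 FPKM, and lowest in GP, with 14.1. *Shh*, the signal of the posterior limb margin, is listed at 0 in all 4 libraries, and the related factor genes *Hand2* and *Hand1* had 0.106 and 2.93 FPKM in GP, with at most 0.604 for *Hand1* in a suture and 0 for *Hand2*. *Hand1* also reached 1 FPKM only in GP. *Shh*, *Hand1*, and *Hand2* were named after their values were seen.

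Of 7 other genes on the paired-type homeobox list, 4 passed the filter, and 0 were called. The highest levels were those of *Prrx2*, from 178 to 433 FPKM, and *Prrx1*, from 31.0 to 57.7 FPKM, limb and head mesenchyme factors that differed by less than 3-fold between GP and any suture.

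Of 13 other T-box genes, 4 passed the filter, and 0 were called. *Tbx2*, which neighbours *Tbx4* on chromosome 11, had 28.0 FPKM in GP, 16.9 in COR, 13.5 in PF, and 0.766 in SAG. *Tbx3*, which neighbours *Tbx5* on chromosome 5, had 4.31 FPKM in GP, 2.70 in SAG, 0.288 in PF, and 0.251 in COR. Both were highest in GP, like *Tbx4* and *Tbx5*, but at least 1 suture lay within 3-fold of GP.

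Of 16 other TALE genes, 12 passed the filter, and 0 were called. *Irx3* and *Irx5* were the highest, at 41.7 and 40.7 FPKM in COR, where *Meis1* and *Meis2* were also highest, and at 7.82 and 13.9 in GP. *Meis3*, the remaining paralog, held 34.0 FPKM in COR, 28.9 in PF, 14.6 in SAG, and 12.3 in GP, so it was above *Meis1* and *Meis2* in every library. *Meis3* was named after its values were seen.

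Of 19 LIM homeobox genes and cofactors, 14 passed the filter, and 0 were called. The highest were *Lmo4*, from 41.5 to 131 FPKM, and *Ssbp4*, from 43.5 to 106, both highest in PF. *Lhx2*, the limb bud partner of *Lhx9*, was highest in SAG like *Lhx9*, with 2.92 FPKM there, and it was at 0 in PF and at most 0.424 in the others. *Lmx1a*, the paralog of *Lmx1b*, had 2.42 FPKM in SAG, 1.24 in GP, 1.08 in COR, and 0.136 in PF, so PF was lowest where *Lmx1b* was highest. *Lhx2* and *Lmx1a* were named after their values were seen.

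**Figure D5:**
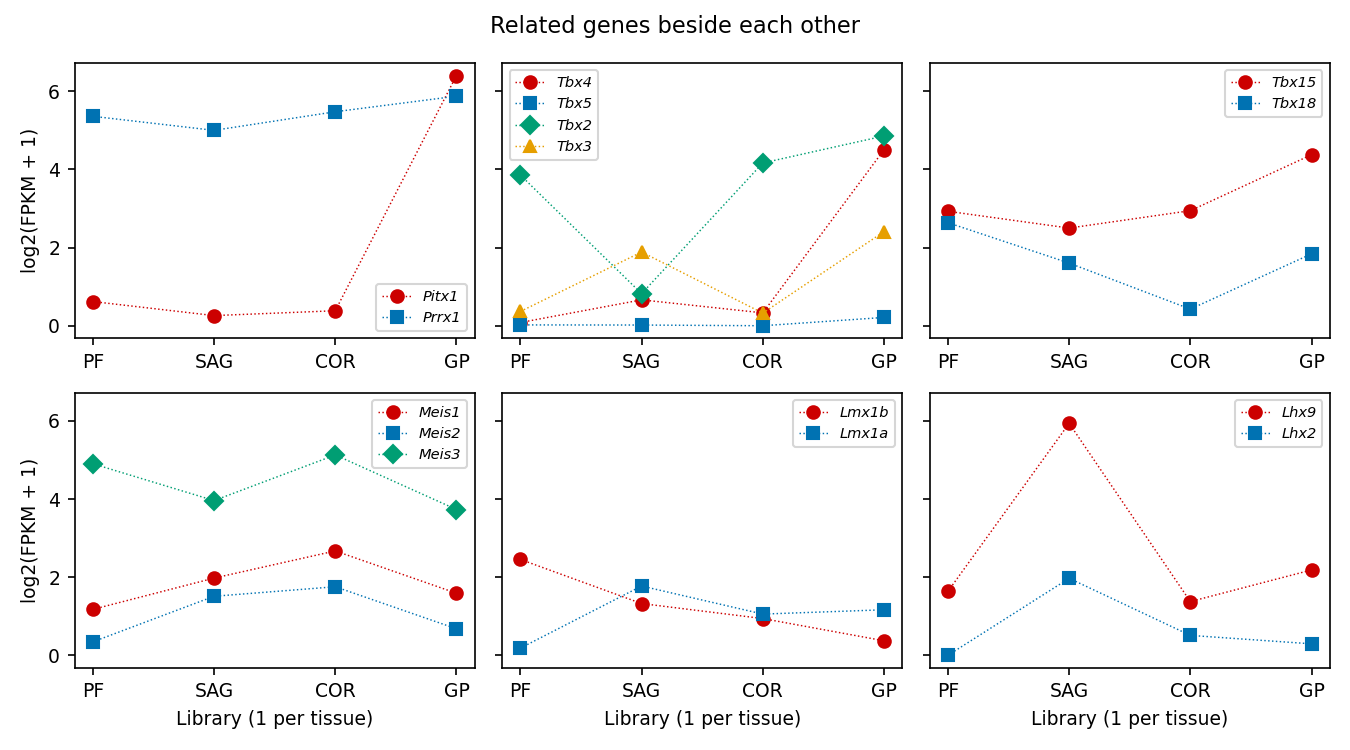
Levels of 9 of the 10 genes (*Shox2* is not shown) with related genes as log2(FPKM + 1) in the 4 libraries; 1 point per library, and dotted lines only join the points of a gene. *Pitx1* is near 0 in the sutures while *Prrx1*, also a paired-type gene, is high in all 4 libraries, *Tbx5* stays near 0, *Meis1* and *Meis2* share their order, and *Lhx9* and *Lhx2* both peak in SAG.

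For each of the 9 genes that passed the filter, the genes with the nearest profile over the 4 libraries were found by Euclidean distance of mean-centred log2(FPKM + 1) values. With 4 values per gene, many genes can lie close together. Nearest to *Pitx1* was *Hoxa10*, at a distance of 0.11, with 79.6 FPKM in GP and at most 0.594 in a suture. *Tbx4* lay nearest to *Mab21l2* (0.35), *Hoxa9* (0.36), and *Hoxc10* (0.37). *Shox2* lay nearest to *Hoxa11os* (0.80) and *Hoxa11* (0.93), which are antisense partners that cannot be told apart without strand. The next after *Hoxa10* for *Pitx1* were *Snord42b* (0.51) and *Kera* (0.59), and for *Shox2* it was *Mir7024* (0.95); the short RNA genes are listed at 0 in every suture. The list for *Tbx15* was *Fam101b*, *Osr2*, and *Ltbp1*, at distances up to 0.18, and that for *Tbx18* was *Grtp1*, *Sepp1*, and *Ppm1l*, at distances up to 0.20. *Meis1* lay nearest to *Dlg2*, *Rasgrf1*, and *Jak2*, and *Meis2* to *Tldc1*, *Adra1b*, and *Inhbb*. *Lmx1b* lay nearest to *Vcan* (0.097), *Nr2f1* (0.10), and *Tapbp* (0.13). *Lhx9* lay nearest to *Gpm6a* (0.25), a neuronal membrane glycoprotein gene, *A330048O09Rik* (0.43), and *Kcne2* (0.52), a potassium channel subunit gene of the choroid plexus.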

How the data were processed

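Sorted CD51+;CD200+ cells of each tissue gave 1 library, made from amplified low-input cDNA and sequenced on an Illumina HiSeq. For each gene symbol the authors deposited FPKM. These came from paired-end reads placed on mm9 with STAR 2.5.1b, then from Cuffdiff of Cufflinks 2.2.1 on the iGenomes gene model, with versions as the submitters' processing notes give them. Library scaling within Cuffdiff, the fragments per library, and whether counting used strand are not given in the sources used here. Absolute depth is therefore unknown, and no counting interval is given. Relative depth, and the fragments behind a value, were estimated from the commonest low value of FPKM times transcript length over genes with 1 coding transcript, which holds if FPKM values are proportional to fragments within a library.

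Tissues were taken from the sample titles. Differences were computed on log2(FPKM + 1) for genes that reached 1 FPKM in any library and counted at 3-fold or more, with no test, since each tissue has 1 library. The 10 genes and all lists were chosen with earlier results of these data known. Named genes were the 10 genes, family and patterning genes counted as different in GP, the 2 highest genes of each of these lists, sorting antigens and markers that moved with a gene, and the 3 nearest profiles of each gene; exceptions are marked. Gene positions, lengths, and GC content are from GENCODE for mm9 (NCBIM37). Promoters are from RefSeq and were found for 7 of the 10 genes; protein sequences were not used here. The values of 1 list gene are not reported here. Alternatives were another pseudocount, 3 scalings, 3 filters, 2 thresholds, other comparators, and leaving out each suture; a loess correction for GC content (span 0.3) was chosen after the data were seen. Calculations ran in Python 3.11.15 (pandas 2.3.3, numpy 2.4.6, statsmodels 0.14.6; plots by matplotlib 3.10.9) and were tested on simulated data.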

Additional observations from a re-analysis of the deposited data

How the results depend on the processing

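No paired analysis was possible because no tissue has more than 1 library. *Pitx1*, *Tbx4*, and *Shox2* stayed at least 3-fold higher in GP than in every suture under each alternative run except the filter of FPKM of 1 or more in every library, which leaves them out because a suture was below 1. Their log2 differences from the suture mean ran from 5.90 to 7.62, 4.01 to 6.01, and 4.54 to 6.12, and against the highest suture they were 5.78, 3.84, and 4.11. *Tbx15* was also counted with a 2-fold threshold, and its log2 difference from the suture mean, 1.59, fell under 3-fold without SAG (1.44) and after the GC correction (1.55). The suture compared also set the sign for *Lhx9* (-0.80, but 0.68 without SAG and -1.60, past 3-fold, without COR), *Tbx18* (0.28, but -0.28 without COR), *Meis1* (-0.35, but 0.013 without COR), and *Meis2* (-0.52, but 0.33 against its lowest suture).

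Counts here are of the 10 genes unless list genes or all genes are named, and list genes were named after their values were seen. Requiring FPKM of 1 or more in every library gave 0 higher in GP than every suture and 0 higher list genes. By this filter 0.280% of all genes were higher in GP than every suture and 0.110% lower. For pairs it gave 0 between GP and COR, 0 between GP and PF, 2 between GP and SAG, and 0 between PF and COR. Shares of all genes for these pairs were not computed. With a pseudocount of 0.1, 5 genes differed between GP and COR (*Tbx18* and *Meis2* were added), 5 between PF and COR (*Shox2*, *Meis1*, *Meis2*, and *Lmx1b* were added), 3 between PF and SAG (*Tbx4* and *Meis2* were added), and 2 between COR and SAG (*Tbx18* was added), beside 8.74%, 23.6%, 27.7%, and 15.4% of all genes; 2 list genes were higher (*Grem1*, *Hand1*) and 2 lower in GP, beside 1.62% and 0.814% of all genes. With a 2-fold threshold the numbers were 7 between GP and COR, 5 between PF and COR, 4 between PF and SAG, and 2 between COR and SAG. The shares of all genes for these pairs at 2-fold were not computed. At 2-fold, 2 list genes (*Grem1*, *Hand1*) and 1.92% of all genes were higher in GP than every suture, and 0.543% of all genes were lower. With a 5-fold threshold 0 differed between PF and COR, and the share of all genes for that pair was not computed. At 5-fold, 0.471% of all genes were higher in GP than every suture and 0.114% lower. Upper-quartile scaling gave 2 between PF and COR, again with no share of all genes computed for the pair. Without a filter, 0.572% of all genes were higher and 0.1503% lower. Without PF, 1 list gene was lower and 1.64% of all genes were higher; without SAG, 2 list genes (*Grem1*, *Tbx3*) and 1.64% of all genes were higher; without COR, 3 list genes were lower (*Pknox2*, *Lmo2*, *Bmp4*), and 1.56% of all genes were higher and 0.908% lower. Apart from the construction of the filters and thresholds, the cause was not tested. The shallow PF library limits ratios of genes with low FPKM there.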

Other observations

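The nearest measured protein-coding gene on each side of the 10 genes in the mm9 annotation was read as well, a description added after the data were seen. Of these 20 neighbours, 0 were at least 3-fold higher and 0 were at least 3-fold lower in GP than in every suture, by the same rule and with no test. Over all 13998 genes 0.979% were higher and 0.257% lower, so counts of 0 among 20 genes lie near these shares. The neighbours of *Pitx1* were *Catsper3*, listed at 0 in PF and GP and at 0.377 FPKM in SAG and 0.280 in COR, and *H2afy*, from 68.9 to 123 FPKM. *Nt5e*, which encodes CD73 and neighbours *Tbx18*, had 62.0 FPKM in GP and from 11.5 to 22.6 FPKM in the sutures, and its smallest log2 difference was 1.42, against SAG.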
